A study of Mus musculus with 21 samples.

Results

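Nucleotide synthesis and the pentose phosphate pathway (PPP) were followed through 34 enzyme genes in the RNA sequencing of mouse hematopoietic stem cells (HSCs). The genes were taken by symbol from the 21000 symbols of the deposited count table, and all 34 were found and passed the filter on low counts in every comparison. They comprise 10 genes of de novo purine synthesis (Ppat, Gart, Pfas, Paics, Adsl, Atic, Adss, Impdh1, Impdh2, Gmps), 4 of pyrimidine synthesis (Cad, Dhodh, Ctps, Ctps2), 5 nucleotide kinases (Nme1, Nme2, Cmpk1, Dtymk, Guk1), the PRPP synthetases Prps1 and Prps2, 3 genes of the oxidative PPP (G6pdx, Pgls, Pgd), 4 of the non-oxidative PPP (Rpia, Rpe, Tkt, Taldo1), 3 of one-carbon metabolism (Mthfd1, Mthfd1l, Shmt1) and 3 of purine salvage (Hprt, Aprt, Adk).

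The 21 libraries formed 7 groups of 3, each library made from 3000–3500 wild-type bone marrow HSCs (CD150+ CD48- cells of the Lineage- Sca-1+ c-Kit+ gate). Mice aged 10 weeks received intraperitoneal phosphate-buffered saline (PBS) or 150 mg/kg 5-fluorouracil (5-FU), a pyrimidine analogue whose products block thymidylate synthesis and which drives HSCs into the cell cycle, once or 3 times at intervals of 21 days. Counting the day of the last administration as day 1, HSCs were taken at day 6 (PBS-1 d6, 5FU-1 d6, PBS-3 d6, 5FU-3 d6) or at day 21 (5FU-1 d21, 5FU-3 d21), and the group named old came from untreated mice aged 2 years. At day 6 after 5-FU the Mac-1 antibody was left out and the gate was widened to c-Kit-dim cells, so that the drug and the gate cannot be told apart in any comparison with those libraries. The replicates are described as independent experiments, total counts ranged from 22184885 to 38649033 (median 26962256), and no library stood apart or matched another within sampling noise. The column names of the PBS-1 d6 and 5FU-1 d6 libraries carry a suffix whose meaning is not given, so a run or batch that it might mark cannot be told apart from these groups where they are compared with any other. A floor of 3 counts was taken for a library. None of the 10 HSC, 12 myeloid, 7 erythroid or 6 megakaryocyte markers was at or under it in all 21 libraries. Of the 6 B cell markers Pax5 was, and of the 6 T and NK cell markers Cd3e and Cd8a were.

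Purines are built on phosphoribosyl pyrophosphate (PRPP), which the PRPP synthetases make from ribose 5-phosphate of the PPP, and the ring takes up carbon units carried by folate and supplied by serine. Pyrimidine rings are assembled first and joined to PRPP afterwards, and kinases then raise mono- and diphosphates to the triphosphates that RNA and DNA synthesis use. Dividing cells draw on these routes, while salvage enzymes recycle free bases and nucleosides.

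Among RefSeq promoter windows (GRCm38.p6, the bases from 250 before to 50 after a transcript start), 32 of the 34 genes had at least 1, with none listed for Pfas and Dhodh. The E-box CACGTG, the sequence that MYC and MAX and the USF factors bind, stood in a window of 5 of these 32 genes (15.6%). It stood in 8.09% of all 27025 genes with a window, which were not limited to genes expressed in HSCs. The share among expressed genes is not reported here. The E-box reads the same on both strands. The stretches that hold it are shown because Paics, Nme1 and Dtymk are among the genes that rose in both day 6 comparisons, and Atic and Impdh2 in 1 of them each. Positions count back from the transcript start, capitals mark the E-box, up to 12 bases flank it, and Nme1 has 2 starts with an E-box each:
Paics, chr5:76951087-76951116, plus strand, positions −215 to −186: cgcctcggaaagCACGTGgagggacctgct
Atic, chr1:71557137-71557155, plus strand, positions −19 to −1: ggacctcggggtCACGTGg
Impdh2, chr9:108560314-108560343, plus strand, positions −122 to −93: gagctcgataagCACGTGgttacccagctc
Nme1, chr11:93968273-93968302, minus strand, positions −30 to −1: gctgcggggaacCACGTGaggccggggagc
Nme1, chr11:93968037-93968066, minus strand, positions −41 to −12: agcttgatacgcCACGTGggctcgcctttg
Dtymk, chr1:93802065-93802094, minus strand, positions −160 to −131: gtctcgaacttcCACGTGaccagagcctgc
CCAAT was found, on either strand, in 14 of the 32 genes (43.8%, compared with 41.1% of all genes) and TGATGNAA, the letters used for a C/EBP-ATF response element, in 1 (Prps1, 3.12%, compared with 4.51%). No motif of the 3 contains another. Letter matches describe the windows and no binding was measured.

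In PBS-treated HSCs the genes spanned a wide range of levels per length. Normalized CPM (counts scaled to the library total and by TMM factors over all libraries) were divided by the length of the longest GENCODE vM21 transcript in kilobases (kb). Paics, which carries out adjacent steps of the purine ring, was highest in the PBS-1 d6 libraries at 442 ± 15.2 CPM per kb (mean ± SD, n = 3). Impdh2, the start of the branch to GMP, followed at 117 ± 7.95 and Ctps2, a CTP synthase, at 112 ± 7.31 CPM per kb, and these neighbours did not differ beyond their spread. Nme2 stood at 89.3 ± 2.04 and Impdh1 at 72.3 ± 7.64 CPM per kb. Nme1 was at 38.9 CPM per kb. The length used was 1012 bases for Nme2 and 3181 bases for Nme1, so their order per kb depends on the transcript chosen. Without length Nme1 was the higher in PBS-1 d6, at 124 CPM against 90.3 CPM for Nme2. The lowest levels per kb were those of Dhodh (5.44 ± 0.254), Pfas (4.76 ± 0.746) and Rpia, the ribose 5-phosphate isomerase (0.885 ± 0.114). From Pgls to Prps2, 10 neighbours in the order lay between 21.8 and 29.9 CPM per kb. Impdh2 has a near-identical pseudogene copy over 83.2% of its longest transcript, and how reads with several alignments were counted is not stated, so its level is uncertain.

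**Figure D1:**
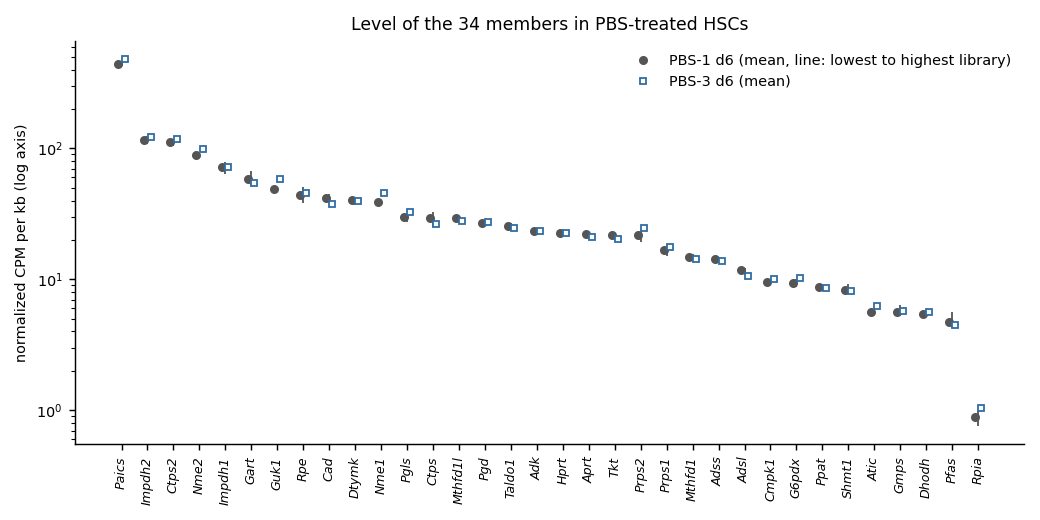
Normalized CPM per kb of transcript (log axis) of the 34 genes in PBS-treated HSCs, ordered by the PBS-1 d6 mean. Filled points are PBS-1 d6 means with a line from the lowest to the highest of 3 libraries and open squares are PBS-3 d6 means. Paics lies highest at 442 and Rpia lowest at 0.885 CPM per kb in PBS-1 d6.

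To ask how the nucleotide synthesis genes stood in HSCs that cycle after 5-FU, 5-FU- and PBS-treated HSCs were compared at day 6. After 1 administration 17 of the 34 genes were higher under 5-FU (edgeR quasi-likelihood test, Benjamini-Hochberg adjusted p under 0.05), beside 11.5% of 12759 genes tested, and 0 were lower, beside 10.6%. After 3 administrations 16 were higher, beside 9.84% of 12729 genes, and 0 were lower, beside 8.30%. The genes that rose in both were Gart, Paics, Cad, Ctps, Nme1, Nme2, Dtymk, Pgls, Pgd, Mthfd1l, Shmt1 and Adk. Another 5 passed only after 1 administration (Atic, Guk1, Prps1, G6pdx, Mthfd1) and 4 only after 3 (Ppat, Pfas, Impdh2, Rpe), and 13 passed in neither. The median log2 fold change of the 34 was 0.29 after 1 administration and 0.32 after 3, where the median of all genes was −0.00056 and −0.012. All 3 5-FU libraries lay above all 3 PBS libraries for 26 of the 34 genes after 1 administration, beside 22.3% of all genes, and for 23 after 3, beside 21.2%. At an unadjusted p under 0.05, 25 and 20 genes differed, all of them higher under 5-FU. The share of all genes at an unadjusted p under 0.05 is not reported here for any comparison. DESeq2 called 18 of the 34 higher and 0 lower in each comparison. Of 12759 genes it called 1745 higher and 1940 lower after 1 administration. Of 12729 genes it called 1732 higher and 1632 lower after 3.

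The summed level of the 34 genes was 3911 ± 93.8 CPM in PBS-1 d6 and 5008 ± 239 CPM in 5FU-1 d6 (mean ± SD, n = 3), a ratio of 1.28. After 3 administrations it was 4045 ± 114 CPM under PBS and 5579 ± 241 CPM under 5-FU, a ratio of 1.38. As a share of raw counts, free of any normalization factor, the genes held 0.399–0.409% of PBS-1 d6 and 0.493–0.517% of 5FU-1 d6 libraries, and 0.398–0.419% of PBS-3 d6 and 0.518–0.534% of 5FU-3 d6 libraries. The 5-FU libraries did not overlap the PBS libraries in either. With library size alone as the scale 14 genes were higher after 1 administration, beside 1127 of 12759 genes, and 11 after 3, beside 807 of 12729. On that scale 0 were lower, beside 1623 and 1462 genes. The share of higher among the calls of all genes moved from 52.0% to 41.0% and from 54.2% to 35.6%. In bulk RNA, more cells with a transcript and more transcript per cell cannot be told apart.

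**Figure D2:**
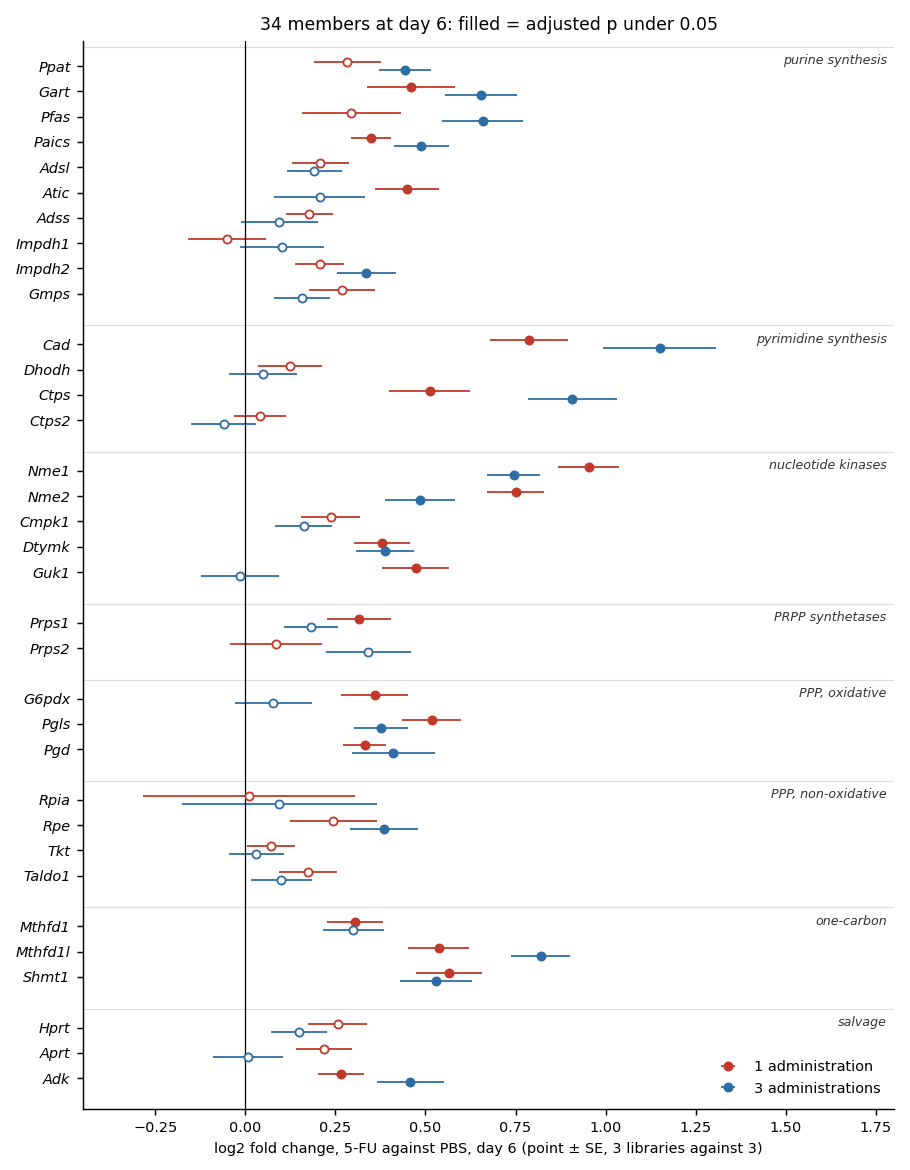
Log2 fold changes of 5-FU against PBS at day 6 (x axis) for the 34 genes (y axis) by role, with SE as bars, after 1 administration (red) and 3 administrations (blue). Filled points passed an adjusted p of 0.05, which 17 and 16 genes did, all to the right of 0. Nme1 has the largest value after 1 administration (0.95) and Cad after 3 (1.15).

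Other gene lists moved at the same time. Of 17 S phase genes, 13 were higher after 1 administration and 16 after 3, and of 13 G2/M genes 7 and 13. The summed S phase list was at 2308–2394 CPM in PBS-1 d6 and 3142–3556 CPM in 5FU-1 d6, and at 2033–2389 and 3377–3987 CPM after 3 administrations. The 10 HSC markers summed to 3929.7–4331 CPM in PBS-1 d6 and 3118–3272 CPM in 5FU-1 d6, and to 3763–4126 and 2732–2815 CPM after 3 administrations. Kit, the receptor on which the gate was widened, was lower in both comparisons, while Mecom, a transcription factor of HSCs, was higher in both. After 1 administration 3 HSC markers were higher and 2 lower, and after 3 administrations 1 and 4. The median log2 fold change of the 10 HSC markers was 0.22 after 1 administration and −0.28 after 3. The 12 myeloid markers summed to 104–146 and 68.3–80.5 CPM after 1 administration and to 96.3–128 and 59.7–84.8 CPM after 3 (PBS and 5-FU), with 1 and 0 of the tested genes higher and 5 and 2 lower. The 6 megakaryocyte markers summed to 166–203 and 107–112 CPM after 1 and 177–186 and 149.6–159 CPM after 3, with 0 higher and 4 and 2 lower. The 7 erythroid markers summed to 37.3–41.6 and 63.5–66.8 CPM and to 37.5–45.9 and 44.0–61.5 CPM, with 1 and 2 higher and 2 and 0 lower. The 6 B cell markers summed to 38.1–45.3 and 35.1–44.2 CPM and to 42.8–52.6 and 35.5–36.2 CPM. The 6 T and NK cell markers summed to 16.3–18.4 and 8.16–9.78 CPM and to 17.2–20.7 and 15.0–17.7 CPM. The part of cell cycle phase or of other cell types in the changes of the 34 genes was not tested.

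**Figure D3:**
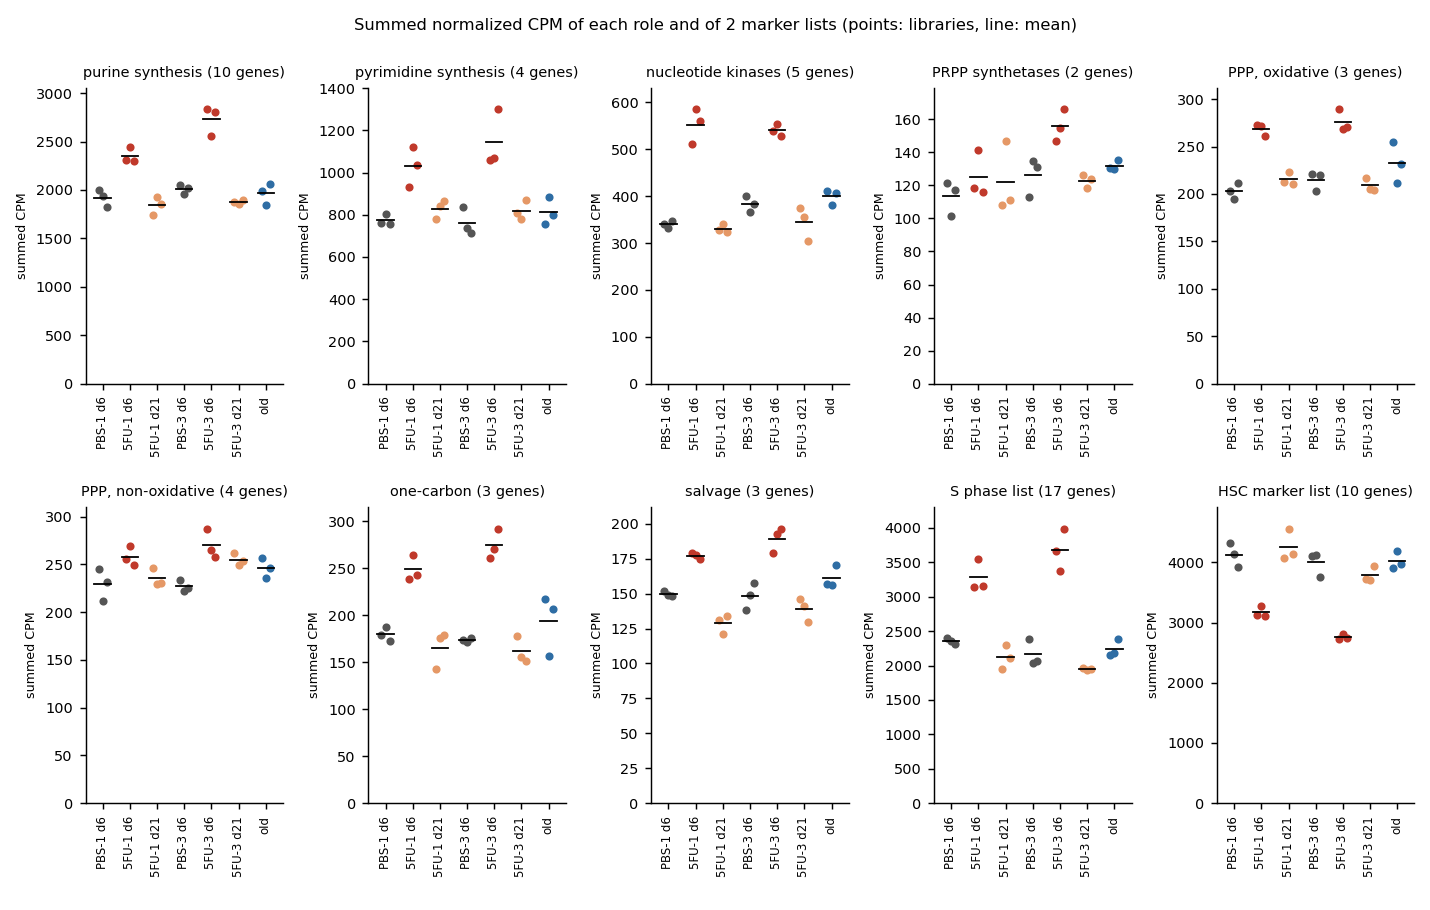
Summed normalized CPM (y axes, from 0) of each role and of the S phase and HSC marker lists in the 7 groups (x axes), with 1 point a library and a line at the mean of 3. Purine synthesis rises from 1828–1999 CPM in PBS-1 d6 to 2297–2444 CPM in 5FU-1 d6 and lies at 1744–1932 CPM at day 21. The S phase sum goes the same way and the HSC marker sum the opposite way. The single HSC markers are mixed, with a median log2 fold change of 0.22 after 1 administration and 3 called higher and 2 lower.

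De novo purine synthesis rose in part. Of its 10 genes 3 passed after 1 administration (Gart, Paics, Atic) and 5 after 3 (Ppat, Gart, Pfas, Paics, Impdh2). The summed level of the 10 was 1.22 and 1.36 times that under PBS. A sum is weighted to abundant genes, and Paics averaged 1096.5 of 1921 CPM in PBS-1 d6 and 1386 of 2349 CPM in 5FU-1 d6. Paics (chr5:76951307-76967509, plus strand), the bifunctional enzyme of the sixth and seventh steps, was at 1128, 1107 and 1054 CPM in the PBS-1 d6 libraries and at 1390.4, 1441 and 1325 CPM in the 5FU-1 d6 libraries. After 3 administrations Paics was at 1230.3, 1156 and 1199.6 CPM under PBS and at 1836, 1548 and 1662 CPM under 5-FU. All 5-FU libraries were above all PBS libraries in both, and the log2 fold changes were 0.35 ± 0.06 (adjusted p = 0.00673) after 1 administration and 0.49 ± 0.08 (adjusted p = 0.00795) after 3 (± SE). Paics was at 995, 1121 and 1078 CPM in the 5FU-1 d21 libraries, 1090.1, 1116 and 1099.8 CPM in the 5FU-3 d21 libraries and 1168, 1074 and 1245 CPM in the old libraries, within or below the range of PBS-3 d6 except 1 old library. Gart (chr16:91621186-91646952, minus strand), a trifunctional enzyme that takes up the first folate-carried carbon, was at 238, 186 and 198 CPM in the PBS-1 d6 libraries and at 259, 322 and 266 CPM in the 5FU-1 d6 libraries. After 3 administrations Gart was at 207, 169.8 and 201 CPM under PBS and at 286, 298 and 328 CPM under 5-FU. The groups did not overlap in either, with log2 fold changes of 0.46 ± 0.12 (adjusted p = 0.0365) after 1 administration and 0.65 ± 0.10 (adjusted p = 0.00738) after 3. After 1 administration Gart passed in only 1 of 6 fits that each left out a library, the one without PBS-1 d6 replicate 1, and its adjusted p reached 0.103 in the other 5. At the later times Gart was at 168, 196 and 189 CPM in the 5FU-1 d21 libraries, 196, 167 and 217 CPM in the 5FU-3 d21 libraries and 221, 214 and 217 CPM in the old libraries.

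Ppat, which commits PRPP to purines, was at 35.6, 35.0 and 36.2 CPM in PBS-3 d6 and 47.3, 47.8 and 50.6 CPM in 5FU-3 d6, with log2 fold changes of 0.28 ± 0.09 (adjusted p = 0.0663) after 1 administration and 0.44 ± 0.07 (adjusted p = 0.009) after 3. Pfas, the enzyme of the fourth step, was at 29.7, 29.9 and 26.5 CPM in PBS-3 d6 and 41.4, 42.6 and 52.3 CPM in 5FU-3 d6, with log2 fold changes of 0.29 ± 0.14 (adjusted p = 0.165) after 1 administration and 0.66 ± 0.11 (adjusted p = 0.0104) after 3. Ppat lay above its PBS libraries without overlap in both comparisons, and Pfas did so only after 3 administrations. Atic, the enzyme of the last 2 steps to inosine monophosphate, changed by 0.45 ± 0.09 (adjusted p = 0.0138) after 1 administration and 0.21 ± 0.13 (adjusted p = 0.305) after 3. Of the genes that convert inosine monophosphate, Impdh2 changed by 0.21 ± 0.07 (adjusted p = 0.0706) after 1 administration and 0.34 ± 0.08 (adjusted p = 0.0313) after 3, and it passed after 3 administrations in only 1 of the 6 fits that left out a library, the one without 5FU-3 d6 replicate 2 (adjusted p up to 0.0931 in the others). Adsl, Adss, Gmps and Impdh1 passed in neither, with log2 fold changes of 0.21, 0.18, 0.27 and −0.05 after 1 administration and 0.19, 0.09, 0.16 and 0.10 after 3. Ppat and Paics are transcribed away from each other and share 6.15% and 8.67% of their exonic bases on opposite strands, and 19.7% of the exonic bases of Gart lie opposite the gene Gm15964. Whether the counting used strand is not stated.

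In pyrimidine synthesis Cad and Ctps rose in both comparisons and Dhodh and Ctps2 passed in neither. The summed level of the 4 was 758–806 CPM in PBS-1 d6 and 932–1122 CPM in 5FU-1 d6, and 713–835 and 1059.8–1298 CPM after 3 administrations, without overlap. Of the mean sums, Cad held 299 of 775 CPM in PBS-1 d6 and 511 of 1030 CPM in 5FU-1 d6. Cad (chr5:31054780-31078479, plus strand), the enzyme that starts the pyrimidine ring, was at 302, 319.9 and 275 CPM in the PBS-1 d6 libraries and at 442, 579 and 512 CPM in the 5FU-1 d6 libraries. After 3 administrations Cad was at 303, 257 and 254 CPM under PBS and at 495, 568 and 746 CPM under 5-FU. Every 5-FU library was above every PBS library, and the log2 fold changes were 0.79 ± 0.11 (adjusted p = 0.00429) after 1 administration and 1.15 ± 0.16 (adjusted p = 0.00545) after 3. Cad was at 294, 332 and 346 CPM in the 5FU-1 d21 libraries, 355, 315 and 382 CPM in the 5FU-3 d21 libraries and 335, 398 and 314 CPM in the old libraries, so that all 3 5FU-3 d21 libraries were above PBS-3 d6 and below 5FU-3 d6. Ctps (chr4:120539868-120570276, minus strand), a CTP synthase, was at 87.9, 67.5 and 83.2 CPM in the PBS-1 d6 libraries and at 105, 119 and 113 CPM in the 5FU-1 d6 libraries. After 3 administrations Ctps was at 73.9, 74.1 and 65.7 CPM under PBS and at 129, 117 and 156 CPM under 5-FU. These groups too did not overlap, with log2 fold changes of 0.51 ± 0.11 (adjusted p = 0.0197) after 1 administration and 0.91 ± 0.12 (adjusted p = 0.00541) after 3. After 1 administration Ctps lost its call without 5FU-1 d6 replicate 2 or replicate 3 (adjusted p up to 0.0609). Ctps was at 72.8, 64.3 and 70.0 CPM in the 5FU-1 d21 libraries, 49.6, 74.7 and 86.3 CPM in the 5FU-3 d21 libraries and 74.4, 73.2 and 85.5 CPM in the old libraries. Its homologue Ctps2 (chrX:162901238-163032508, plus strand) was at 349.8, 399 and 379 CPM in PBS-1 d6 and 361, 402 and 388 CPM in 5FU-1 d6, and at 438, 386 and 371 and 413, 362 and 374 CPM after 3 administrations. The Ctps2 groups overlapped, and the 95% intervals of its log2 fold change were −0.13 to 0.21 and −0.27 to 0.15. Dhodh, the mitochondrial step of the ring, had intervals of −0.08 to 0.33 and −0.17 to 0.27.

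Nucleotide kinases had the largest ratio of summed levels of any role after 1 administration, 1.62, and 1.41 after 3. Of the mean sums, Nme1 and Nme2 held 124 and 90.3 of 340 CPM in PBS-1 d6 and 238 and 151 of 552 CPM in 5FU-1 d6. Of 5 genes 4 passed after 1 administration and 3 after 3, Cmpk1 in neither. Nme1 (chr11:93956979-93968521, minus strand), a nucleoside diphosphate kinase, was at 121, 124 and 127 CPM in the PBS-1 d6 libraries and at 212, 256 and 245 CPM in the 5FU-1 d6 libraries. After 3 administrations Nme1 was at 157, 143 and 138 CPM under PBS and at 242, 246 and 249 CPM under 5-FU. The groups did not overlap, and the log2 fold changes were 0.95 ± 0.08 (adjusted p = 0.00122) after 1 administration and 0.74 ± 0.07 (adjusted p = 0.00259) after 3. Nme1 was at 107, 134 and 113 CPM in the 5FU-1 d21 libraries, 138, 138 and 108 CPM in the 5FU-3 d21 libraries and 158, 146 and 158 CPM in the old libraries, all below both 5-FU groups at day 6. Nme2 (chr11:93949814-93956259, minus strand), its neighbour and close homologue, was at 91.1, 88.0 and 91.9 CPM in the PBS-1 d6 libraries and at 138, 158 and 157 CPM in the 5FU-1 d6 libraries. After 3 administrations Nme2 was at 102, 90.8 and 109 CPM under PBS and at 146, 146 and 131 CPM under 5-FU. The groups were again apart, with log2 fold changes of 0.75 ± 0.08 (adjusted p = 0.0019) after 1 administration and 0.48 ± 0.10 (adjusted p = 0.017) after 3. After 3 administrations Nme2 lost its call without 5FU-3 d6 replicate 1 or replicate 2 (adjusted p up to 0.0503). Nme2 was at 93.5, 85.9 and 87.2 CPM in the 5FU-1 d21 libraries, 112, 96.4 and 78.4 CPM in the 5FU-3 d21 libraries and 110.3, 102 and 102 CPM in the old libraries. A readthrough gene on the same strand, Gm20390, shares 48.9% of the exonic bases of Nme2 and 12.5% of those of Nme1, so reads of the 3 genes could be split by the counting.

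Dtymk (chr1:93792576-93801934, minus strand), the thymidylate kinase, was at 44.0, 39.1 and 44.0 CPM in the PBS-1 d6 libraries and at 56.6, 53.8 and 53.7 CPM in the 5FU-1 d6 libraries. After 3 administrations Dtymk was at 41.9, 40.0 and 44.5 CPM under PBS and at 56.2, 56.7 and 53.2 CPM under 5-FU. The 5-FU libraries were higher without overlap, and the log2 fold changes were 0.38 ± 0.08 (adjusted p = 0.0165) after 1 administration and 0.39 ± 0.08 (adjusted p = 0.0188) after 3. Dtymk lost its call after 3 administrations without 5FU-3 d6 replicate 1 or 2 or PBS-3 d6 replicate 1 or 2 (adjusted p up to 0.0609). That call was also lost with library size alone as the scale and with the replicate number as a block. Dtymk was at 40.3, 37.1 and 37.5 CPM in the 5FU-1 d21 libraries, 41.0, 40.7 and 38.0 CPM in the 5FU-3 d21 libraries and 45.8, 39.3 and 44.7 CPM in the old libraries. Guk1, the guanylate kinase, was at 54.1, 52.8 and 52.5 CPM in PBS-1 d6 and 65.8, 81.7 and 71.8 CPM in 5FU-1 d6. After 3 administrations Guk1 was at 69.7, 61.7 and 58.2 CPM under PBS and 57.4, 69.9 and 60.9 CPM under 5-FU, and these overlapped. Its log2 fold changes were 0.47 ± 0.09 (adjusted p = 0.0138) after 1 administration and −0.02 ± 0.11 (adjusted p = 0.934) after 3. The difference between them, tested as the interaction of 5-FU with the schedule, was −0.48 ± 0.14 with an adjusted p of 0.143. Cmpk1, the UMP and CMP kinase, changed by 0.24 ± 0.08 (adjusted p = 0.0766) after 1 administration and 0.16 ± 0.08 (adjusted p = 0.203) after 3.

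**Figure D4:**
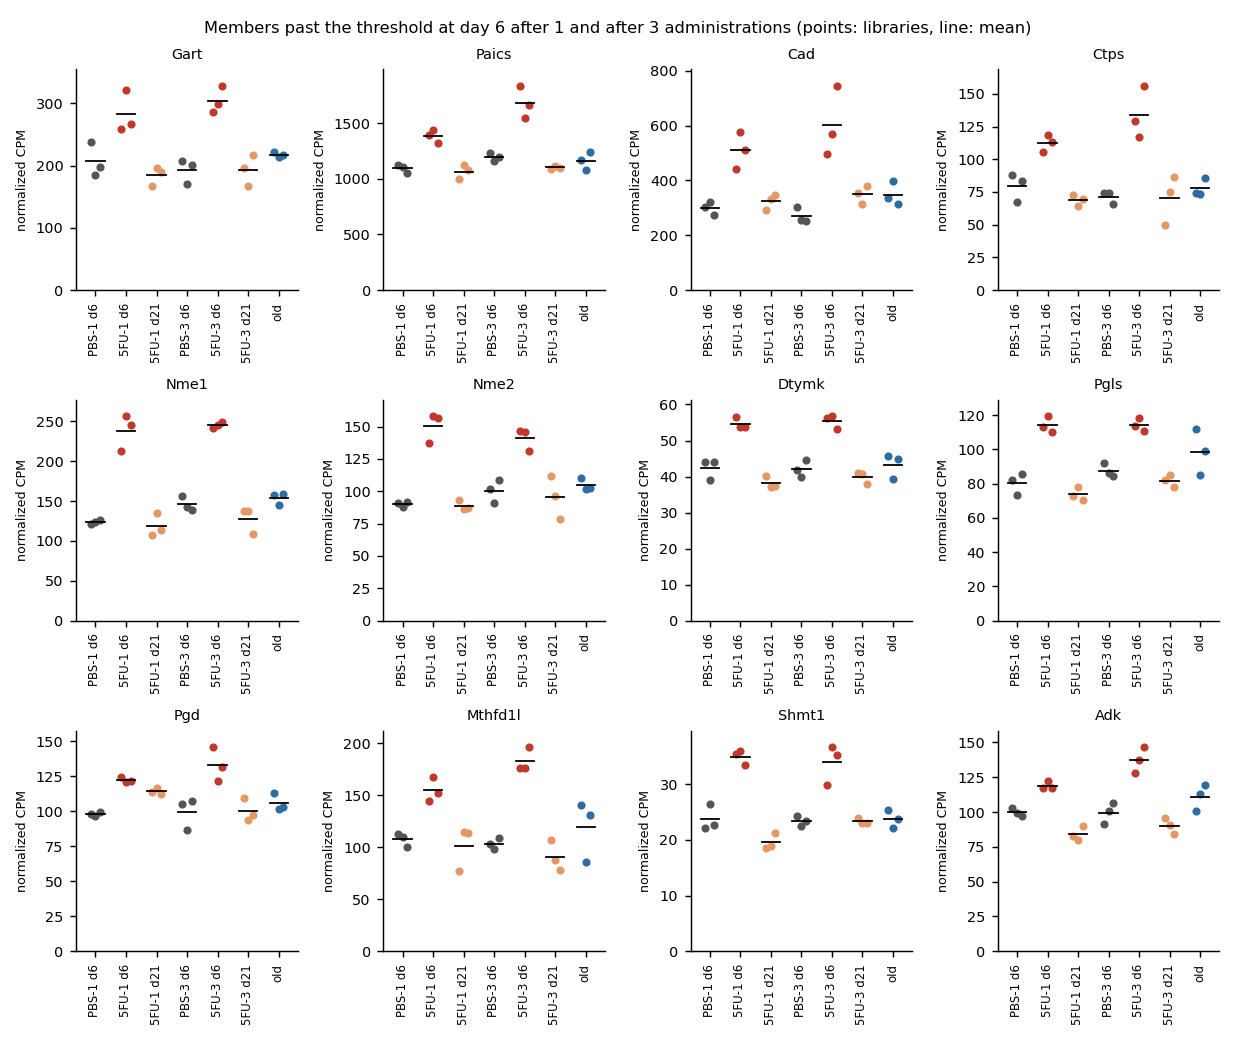
Normalized CPM (y axes, from 0) of the 12 genes that passed the threshold at day 6 after both 1 and 3 administrations, in the 7 groups (x axes), with 1 point a library and a line at the mean of 3. In every panel the 5FU-1 d6 and 5FU-3 d6 points (red) lie above the PBS points of the same schedule (grey), and for Paics the 5FU-1 d21 points (orange) span 995 to 1121 CPM.

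The PRPP synthetases, which make the sugar donor of both routes, gave 1 call. Their summed level was 1.11 and 1.23 times that under PBS, with overlap after 1 administration and none after 3. Prps1 was at 35.7, 29.8 and 32.5 CPM in PBS-1 d6 and 40.3, 41.5 and 39.2 CPM in 5FU-1 d6, with log2 fold changes of 0.32 ± 0.09 (adjusted p = 0.0425) after 1 administration and 0.18 ± 0.08 (adjusted p = 0.143) after 3. The call after 1 administration was kept in 1 of the 6 fits that left out a library, the one without PBS-1 d6 replicate 1 (adjusted p up to 0.112 in the others). Prps2 changed by 0.09 ± 0.13 (adjusted p = 0.664) after 1 administration and 0.34 ± 0.12 (adjusted p = 0.09) after 3. After 3 administrations 0 of the 2 passed with edgeR, both had an unadjusted p under 0.05, and DESeq2 called Prps2.

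The oxidative branch of the PPP, which yields NADPH and ribulose 5-phosphate, rose in all 3 genes after 1 administration and in Pgls and Pgd after 3. Its summed level was 204, 195 and 212 CPM in PBS-1 d6 and 272, 271 and 262 CPM in 5FU-1 d6, a ratio of 1.32, and the ratio after 3 administrations was 1.29. G6pdx, the entry enzyme, was at 23.1, 25.1 and 26.9 CPM in PBS-1 d6 and 34.5, 31.3 and 29.8 CPM in 5FU-1 d6, and at 23.6, 30.2 and 28.2 and 29.5, 28.3 and 28.9 CPM after 3 administrations, where the groups overlapped. Its log2 fold changes were 0.36 ± 0.09 (adjusted p = 0.0345) after 1 administration and 0.08 ± 0.11 (adjusted p = 0.653) after 3, the first of which passed only without PBS-1 d6 replicate 3 among the 6 fits that left out a library (adjusted p up to 0.096). Pgls (chr8:71592176-71601092, plus strand), the lactonase of the second step, was at 82.2, 73.4 and 85.6 CPM in the PBS-1 d6 libraries and at 113, 119 and 110.1 CPM in the 5FU-1 d6 libraries. After 3 administrations Pgls was at 91.9, 86.5 and 84.6 CPM under PBS and at 114, 118 and 111 CPM under 5-FU. The groups did not overlap, and the log2 fold changes were 0.52 ± 0.08 (adjusted p = 0.00683) after 1 administration and 0.38 ± 0.07 (adjusted p = 0.0168) after 3. Pgls after 3 administrations lost its call without 5FU-3 d6 replicate 2, PBS-3 d6 replicate 2 or PBS-3 d6 replicate 3 (adjusted p up to 0.0542). That call was also lost with library size alone as the scale and with the replicate number as a block. Pgls was at 73.0, 78.2 and 70.7 CPM in the 5FU-1 d21 libraries, 82.0, 85.3 and 78.1 CPM in the 5FU-3 d21 libraries and 112, 85.0 and 99.2 CPM in the old libraries. Pgd (chr4:149149991-149166771, minus strand), the dehydrogenase of the third step, was at 98.3, 96.4 and 99.5 CPM in the PBS-1 d6 libraries and at 125, 121 and 122 CPM in the 5FU-1 d6 libraries. After 3 administrations Pgd was at 105, 86.6 and 107 CPM under PBS and at 146, 122 and 131 CPM under 5-FU. The groups were apart in both, with log2 fold changes of 0.33 ± 0.06 (adjusted p = 0.0108) after 1 administration and 0.41 ± 0.12 (adjusted p = 0.0489) after 3. After 3 administrations the call of Pgd was lost in each of the 6 fits that left out a library (adjusted p up to 0.127). It was also lost with size factors by relative log expression and with library size alone as the scale. Pgd was at 114, 116 and 112 CPM in the 5FU-1 d21 libraries, 109, 94.1 and 97.5 CPM in the 5FU-3 d21 libraries and 113, 101 and 103 CPM in the old libraries, and all 3 5FU-1 d21 libraries were above PBS-1 d6. Exons of Pgls overlap Fam129c on the same strand (20.6% of exonic bases) and those of G6pdx lie opposite Ikbkg (13.6%).

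In the non-oxidative branch, which links pentoses with glycolysis, 0 of 4 genes passed after 1 administration, 0 had an unadjusted p under 0.05 and DESeq2 called 0, and Rpe passed after 3 administrations. The summed level of the 4 genes was 211–245 CPM in PBS-1 d6 and 249–269 CPM in 5FU-1 d6, and 222–233 and 258–287 CPM after 3 administrations. These ranges did not overlap, and the ratios were 1.12 and 1.19. Rpe, the ribulose phosphate epimerase, was at 133, 120.4 and 119 CPM in PBS-3 d6 and 181, 153 and 154 CPM in 5FU-3 d6, with log2 fold changes of 0.24 ± 0.12 (adjusted p = 0.187) after 1 administration and 0.39 ± 0.09 (adjusted p = 0.0327) after 3. The call was lost in each of the 6 fits that left out a library (adjusted p up to 0.0927), and 17.9% of the exonic bases of Rpe lie opposite Kansl1l. The transketolase Tkt was at 68.9, 70.3 and 73.2 CPM in PBS-1 d6 and 76.1, 72.0 and 73.1 CPM in 5FU-1 d6, with 95% intervals of the log2 fold change of −0.09 to 0.23 after 1 administration and −0.15 to 0.21 after 3. The transaldolase Taldo1 had intervals of −0.01 to 0.36 and −0.10 to 0.30. Rpia was at 2.41 to 5.04 CPM in all 21 libraries and its intervals, −0.68 to 0.70 and −0.54 to 0.73, were the widest of the 34 genes.

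One-carbon metabolism rose in all 3 genes after 1 administration and in Mthfd1l and Shmt1 after 3. The summed level was 1.39 and 1.58 times that under PBS. Mthfd1l (chr10:3973118-4167081, plus strand), the mitochondrial enzyme that releases formate, was at 113, 110.3 and 100.02 CPM in the PBS-1 d6 libraries and at 145, 167 and 152 CPM in the 5FU-1 d6 libraries. After 3 administrations Mthfd1l was at 103, 98.7 and 109 CPM under PBS and at 176, 176 and 196 CPM under 5-FU. The groups did not overlap, and the log2 fold changes were 0.54 ± 0.08 (adjusted p = 0.00632) after 1 administration and 0.82 ± 0.08 (adjusted p = 0.00265) after 3. Mthfd1l was at 77.3, 114 and 113 CPM in the 5FU-1 d21 libraries, 107, 88.0 and 77.9 CPM in the 5FU-3 d21 libraries and 141, 85.8 and 131 CPM in the old libraries, with old replicate 2 apart from the other 2 old libraries. Shmt1 (chr11:60788104-60811718, minus strand), the cytosolic serine hydroxymethyltransferase, was at 22.2, 26.5 and 22.7 CPM in the PBS-1 d6 libraries and at 35.4, 36.0 and 33.5 CPM in the 5FU-1 d6 libraries. After 3 administrations Shmt1 was at 24.3, 22.6 and 23.4 CPM under PBS and at 29.9, 36.7 and 35.2 CPM under 5-FU. The groups were apart, with log2 fold changes of 0.57 ± 0.09 (adjusted p = 0.00694) after 1 administration and 0.53 ± 0.10 (adjusted p = 0.014) after 3. Shmt1 was at 18.6, 18.8 and 21.2 CPM in the 5FU-1 d21 libraries, 23.9, 23.0 and 23.1 CPM in the 5FU-3 d21 libraries and 25.5, 22.1 and 23.7 CPM in the old libraries, so that 5FU-1 d21 lay below PBS-1 d6. Mthfd1, the cytosolic enzyme that interconverts folate-carried units, changed by 0.30 ± 0.08 (adjusted p = 0.0309) after 1 administration and 0.30 ± 0.09 (adjusted p = 0.0511) after 3, and its call after 1 administration was lost in each of the 6 fits that left out a library (adjusted p up to 0.0943).

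Among the salvage genes Adk rose in both comparisons, and Hprt and Aprt passed in neither. The summed level of the 3 was 1.19 and 1.28 times that under PBS, without overlap. Adk (chr14:21052574-21448569, plus strand), the adenosine kinase, was at 103, 99.4 and 97.1 CPM in the PBS-1 d6 libraries and at 117, 122 and 118 CPM in the 5FU-1 d6 libraries. After 3 administrations Adk was at 91.4, 101 and 107 CPM under PBS and at 128, 137 and 147 CPM under 5-FU. The groups did not overlap, and the log2 fold changes were 0.26 ± 0.06 (adjusted p = 0.0263) after 1 administration and 0.46 ± 0.09 (adjusted p = 0.0184) after 3. After 1 administration Adk passed in 1 of the 6 fits that left out a library, the one without PBS-1 d6 replicate 1 (adjusted p up to 0.0801), and after 3 it lost its call without 5FU-3 d6 replicate 3, PBS-3 d6 replicate 1 or PBS-3 d6 replicate 2 (adjusted p up to 0.0575). Adk was at 82.9, 80.2 and 89.8 CPM in the 5FU-1 d21 libraries, 95.9, 90.8 and 84.0 CPM in the 5FU-3 d21 libraries and 101, 113 and 119 CPM in the old libraries, and the 3 5FU-1 d21 libraries were below PBS-1 d6. Hprt and Aprt, the phosphoribosyltransferases of purine bases, changed by 0.26 and 0.22 after 1 administration and by 0.15 and 0.0081 after 3.

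Several steps have alternative enzymes, and the share of one in its pair was computed per kb of transcript. A two-sided exact permutation test over the 20 assignments of 6 libraries cannot go below p = 0.1, so no pair could pass 0.05, and over the 12 comparisons of 6 pairs the lowest adjusted value was 0.171. The share of Ctps in Ctps and Ctps2 was 26.6, 26.8 and 26.6% under 5-FU against 23.8, 17.3 and 21.4% under PBS after 1 administration, a difference of 5.83 points (exact permutation p = 0.1). After 3 administrations it was 27.9, 28.6 and 34.1% under 5-FU against 17.3, 19.2 and 18.00% under PBS, a difference of 12.01 points (p = 0.1, exact permutation). Ctps2 was thus the more abundant transcript per length in all of these libraries, and the Ctps share did not overlap between 5-FU and PBS. Nme1 made up 32.9, 34.1 and 33.2% under 5-FU against 29.8, 30.9 and 30.5% under PBS of Nme1 and Nme2 after 1 administration, 3.03 points higher, and 34.5, 34.9 and 37.6% under 5-FU against 32.8, 33.3 and 28.8% under PBS after 3, 3.99 points higher. The share of Impdh1 in Impdh1 and Impdh2 was 31.4, 33.7 and 37.0% under 5-FU against 37.4, 40.1 and 37.0% under PBS after 1 administration, a difference of −4.13 points, and 31.3, 33.7 and 35.2% under 5-FU against 35.4, 39.7 and 36.4% under PBS after 3, a difference of −3.78 points. The shares of Nme1 and Impdh1 did not overlap between 5-FU and PBS in either comparison. The size of the Nme1 share depends on the transcript lengths used, 3181 bases for Nme1 and 1012 for Nme2. Without length Nme1 was the higher in PBS-1 d6, at 124 CPM against 90.3 CPM for Nme2. The nearest Impdh1 libraries after 1 administration were at 36.96% under 5-FU and 37.00% under PBS. Prps1 made up 49.3, 43.9 and 49.0% under 5-FU against 43.9, 44.0 and 42.0% under PBS of Prps1 and Prps2 after 1 administration, a difference of 4.12 points (exact permutation p = 0.2). The Prps1 share was 41.1, 40.0 and 36.8% under 5-FU against 45.2, 38.6 and 42.3% under PBS after 3, a difference of −2.74 points (exact permutation p = 0.4). For Mthfd1 in Mthfd1 and Mthfd1l the shares were 31.6, 29.3 and 30.0% under 5-FU against 31.0, 34.2 and 36.2% under PBS after 1 administration, a difference of −3.48 points (exact permutation p = 0.2). After 3 administrations the Mthfd1 shares were 26.3, 26.8 and 25.9% under 5-FU against 33.8, 36.5 and 31.2% under PBS, a difference of −7.54 points without overlap (exact permutation p = 0.1). Shmt1 made up 11.2, 10.3 and 10.3% under 5-FU against 9.44, 11.5 and 10.3% under PBS of Shmt1 and the mitochondrial Shmt2 after 1 administration. The Shmt1 share was 8.66, 10.7 and 9.51% under 5-FU against 10.1, 10.4 and 10.2% under PBS after 3. Both Shmt1 differences, 0.178 and −0.618 points, were smaller than the spread (exact permutation p = 0.9 and p = 0.4), and Shmt2 held the larger share in every group.

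**Figure D5:**
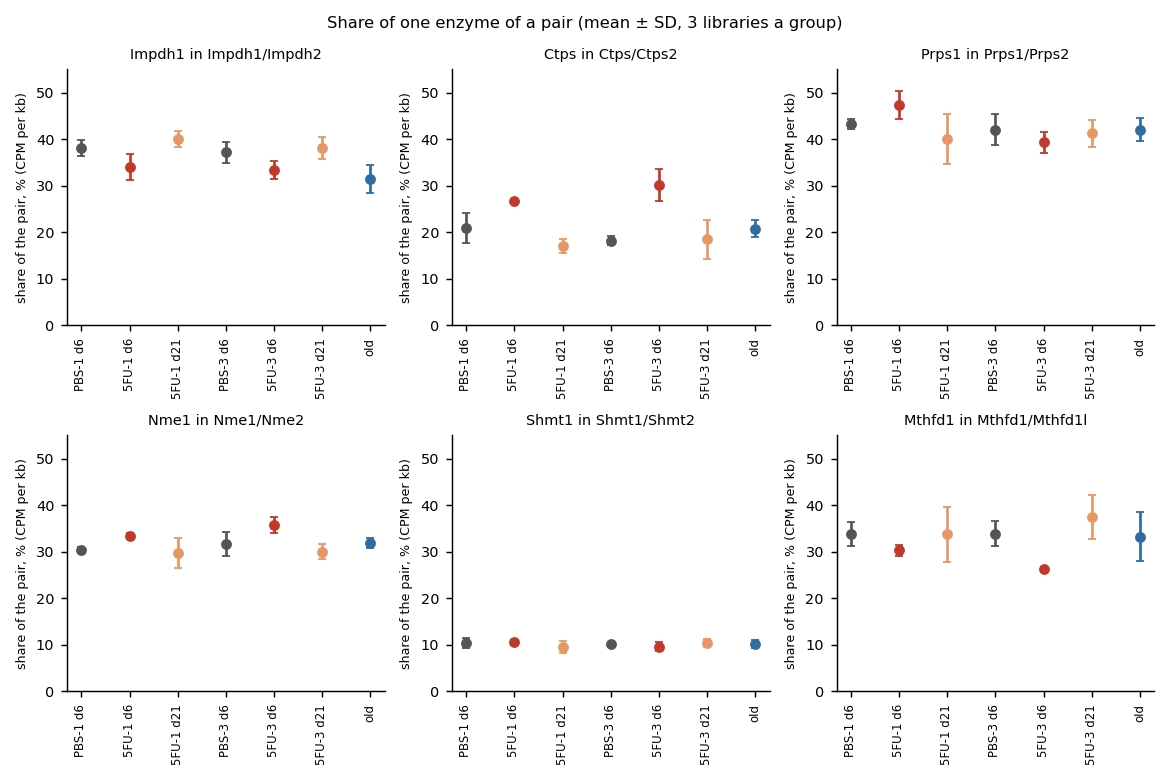
Share of the first-named enzyme in its pair, in percent of the pair's CPM per kb (y axes, from 0), in the 7 groups (x axes), as mean ± SD of 3 libraries. The Ctps share is 18.2% in PBS-3 d6 and 30.2% in 5FU-3 d6, and the Shmt1 share stays between 9.51 and 10.6% in all 7 groups.

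By day 21 after 5-FU many of the 34 genes were lower than at day 6. Compared with day 6 of the same schedule, 23 genes were lower after 1 administration, beside 13.7% of 12589 genes, and 17 after 3, beside 10.8% of 12553 genes, and 0 were higher in either (27 and 21 at an unadjusted p under 0.05, all lower, and 24 and 19 lower and 0 higher with DESeq2). How many of all genes reached the unadjusted threshold is not reported here. The median log2 fold changes of the 34 genes were −0.38 and −0.40, and those of 4 and 3 uncalled genes were above 0. The largest fall after 1 administration was that of Nme1 (−1.02 ± 0.11, adjusted p = 0.00185), followed by Shmt1 (−0.85 ± 0.09, adjusted p = 0.00163), and after 3 administrations that of Mthfd1l (−1.02 ± 0.13, adjusted p = 0.00324), followed by Nme1 (−0.95 ± 0.11, adjusted p = 0.00236). Over all genes DESeq2 called 2119 higher and 2045 lower of 12589 after 1 administration, and 1590 higher and 1849 lower of 12553 after 3. The comparisons of day 21 with day 6 use the same day 6 libraries as those above. With library size alone as the scale 20 and 13 genes were lower, beside 1705 of 12589 and 977 of 12553 genes. That scale moved the median of all genes by 0.11 after 3 administrations. The share of higher among the calls of all genes after 3 administrations moved from 44.4% to 63.5%. After 1 administration 14 genes were lower without any 1 of the 3 5FU-1 d6 libraries, beside 806 to 985 of 12803–12830 genes.

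Against PBS, 0 of the 34 genes passed at day 21 after 1 administration, beside 0.221% of 12647 genes, and 0 after 3, beside 0.0475% of 12632 genes (edgeR). At an unadjusted p under 0.05 there were 4 genes in each. DESeq2 called Pgd (higher) after 1 administration, beside 400 higher and 325 lower of 12647 genes. After 3 it called Cad (higher), Impdh2 and Guk1 (lower), beside 226 higher and 366 lower of 12632 genes. Pgd came nearest to the threshold after 1 administration, at 0.22 ± 0.07 on the log2 scale (adjusted p = 0.258), and Guk1 after 3, at −0.42 ± 0.10 (adjusted p = 0.168). Guk1 was at 69.7, 61.7 and 58.2 CPM in PBS-3 d6 and 50.9, 46.5 and 45.1 CPM in 5FU-3 d21, without overlap. The comparison after 1 administration has PBS-1 d6 as control, because PBS-treated mice were sampled at day 6 alone, and with PBS-3 d6 as control 0 passed as well. The median log2 fold change of the 34 genes was −0.070 after 1 administration and −0.052 after 3.

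HSCs of old mice were compared with PBS-1 d6, and 0 of the 34 genes passed, beside 1.88% of 12855 genes, with 6 at an unadjusted p under 0.05 and with Nme1 and Guk1 called higher and Impdh1 lower by DESeq2. Nme1 changed by 0.32 ± 0.08 (adjusted p = 0.0916) and Impdh1 by −0.36 ± 0.10 (adjusted p = 0.143). Impdh1 was at 194, 205 and 166 CPM in PBS-1 d6 and 139, 157 and 141 CPM in the old libraries, without overlap, and at 181, 203 and 181 CPM in PBS-3 d6. Between PBS given 3 times and once 0 passed, beside 0.0156% of 12806 genes, with 3 at an unadjusted p under 0.05 and Nme1 called higher by DESeq2. Nme1 in PBS-3 d6 was higher than in PBS-1 d6 by 0.24 ± 0.07 (adjusted p = 0.256), and this comparison shares the PBS-1 d6 libraries with the one of old mice. The interaction of 5-FU with the number of administrations at day 6 gave 0 of 34, beside 0.650% of 13227 genes, with 3 at an unadjusted p under 0.05 and Guk1 called by DESeq2. After Guk1 the smallest adjusted p was that of Mthfd1l (0.30 ± 0.11, adjusted p = 0.238). With edgeR a difference between 1 and 3 administrations was shown for none of the 34 genes. How many of all genes DESeq2 called in old mice, between the PBS groups and for the interaction is not reported here.

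Of 39 further genes of these pathways, 38 were tested (Aldh1l2 was too low). After 1 administration 10 were higher and 4 lower, beside 11.5% and 10.6% of all genes. After 3 administrations 7 were higher and 5 lower, beside 9.84% and 8.30%. The summed level of the 39 was 1.02 and 1.04 times that under PBS, and the libraries overlapped in both. Their median log2 fold changes were 0.10 and 0.02. Those higher in both included Mthfd2, Shmt2, Psat1, Umps and Ada. Mthfd2, the mitochondrial folate dehydrogenase that acts beside Mthfd1l, changed by 1.10 ± 0.15 (adjusted p = 0.00375) after 1 administration and 1.49 ± 0.23 (adjusted p = 0.00785) after 3. Shmt2, the mitochondrial counterpart of Shmt1, changed by 0.54 ± 0.07 (adjusted p = 0.00351) after 1 administration and 0.63 ± 0.07 (adjusted p = 0.00371) after 3. Psat1, a step of serine synthesis, changed by 0.45 ± 0.10 (adjusted p = 0.0184) after 1 administration and 0.94 ± 0.11 (adjusted p = 0.00322) after 3. Umps, which joins the pyrimidine ring to PRPP and lies between Dhodh and the kinases, changed by 0.62 ± 0.07 (adjusted p = 0.00232) after 1 administration and 0.47 ± 0.08 (adjusted p = 0.0118) after 3. Ada, the adenosine deaminase, changed by 0.55 ± 0.11 (adjusted p = 0.0161) after 1 administration and 0.75 ± 0.09 (adjusted p = 0.00411) after 3. Lower in both were Shpk, the sedoheptulose kinase, which changed by −0.65 ± 0.17 (adjusted p = 0.0351) after 1 administration and −0.68 ± 0.19 (adjusted p = 0.0438) after 3, and Adssl1, the muscle-type homologue of Adss, which changed by −0.53 ± 0.08 (adjusted p = 0.00679) after 1 administration and −0.43 ± 0.10 (adjusted p = 0.0288) after 3. Compared with day 6, 5 of the 38 were higher and 14 lower at day 21 after 1 administration, beside 12.3% and 13.7% of all genes. After 3 administrations 4 were higher and 9 lower, beside 8.68% and 10.8%. At day 21 against PBS, in old mice, between the PBS groups and for the interaction 0 of the 38 passed with edgeR, and 1 to 6 had an unadjusted p under 0.05.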

How the data were processed

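RNA sequencing data of HSCs were analysed in 21 libraries, 3 in each of 7 groups assigned from the sample titles. Reads were single-end and 75 bases long. According to the submitters' notes, TopHat2 (2.0.13) aligned them, mm10 was the build and Cuffdiff (Cufflinks 2.2.1) gave expression values. What the authors deposited, and what was used here, are unnormalized counts of reads per gene symbol as whole numbers. The program that made the counts, its use of strand and its treatment of reads with several alignments are not given in the sources used here. Total counts were 22184885 to 38649033 per library, at which 3 counts equal 0.0845 to 0.129 CPM. All value columns were used.

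In R 4.3.3, the libraries of each pair of groups were filtered with edgeR 4.0.16 (filterByExpr), scaled by TMM and tested with the quasi-likelihood F test, with Benjamini-Hochberg adjustment over all genes kept and a threshold of 0.05. SE was the absolute log2 fold change divided by the root of F, and 95% intervals used the t quantile for the total degrees of freedom of that test. Comparisons were 5-FU with PBS at day 6, day 21 with PBS, day 21 with day 6, old with PBS-1 d6, PBS-3 d6 with PBS-1 d6, and 5-FU by schedule (an interaction, 12 libraries). P-values measure the spread between these libraries. DESeq2 1.42.0 was an alternative, and the edgeR and DESeq2 steps were tested on simulated counts with known changes. In a single draw each, 200 of 12568 genes (5-FU against PBS, 1 administration) and 200 of 12993 (interaction) were changed 1.5-fold or 4-fold. In the first, 6.50% of edgeR calls and 23.2% of DESeq2 calls were false. For the interaction 8% and 21.0% were false. The data had 1470 genes called higher and 1357 lower of 12759 after 1 administration, so these shares do not carry over. Of the 1.5-fold changes edgeR recovered 35.1% after 1 administration and 11.5% for the interaction. DESeq2 recovered 47.4% and 31.25%. Of the 4-fold changes edgeR recovered 78.6% and 77.9%, and DESeq2 87.4% and 79.8%. Further alternatives used relative log expression for the size factors or library size alone, a filter at 1 count in total or at 10 counts per library, a replicate block, 1 fit of all 21 libraries, PBS-3 d6 as the control, and fits that each left out 1 library. Gene positions and lengths come from GENCODE vM21 on GRCm38, exon overlaps from the same annotation, and copies of at least 95% identity over at least 100 bases from BLAST 2.17.0+.

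The 34 genes, the pathway list and the marker lists were chosen with earlier results of these data known. Values per library are given for genes past the threshold in both day 6 comparisons or in a day 21, old or interaction comparison, and for isozyme pairs, and other pathway genes are named where they passed in both day 6 comparisons, with an exception that is not reported here. Genes shown for other reasons (Ppat, Pfas, Guk1, Prps1, G6pdx, Rpe, Tkt and the extremes of later comparisons) were chosen after their values were seen.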

Additional observations from a re-analysis of the deposited data

Results flagged for a closer look

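Tkt, the transketolase of the non-oxidative PPP, lay below its PBS control at day 21 after 1 administration of 5-FU and above its PBS control after 3. It was at 68.9, 70.3 and 73.2 CPM in PBS-1 d6 and at 66.7, 58.0 and 59.9 CPM in 5FU-1 d21, all lower, and at 63.5, 65.0 and 66.8 CPM in PBS-3 d6 and 68.6, 69.1 and 71.2 CPM in 5FU-3 d21, all higher. The log2 fold changes were −0.20 ± 0.09 (adjusted p = 0.383) after 1 administration and 0.09 ± 0.07 (adjusted p = 0.64) after 3, neither past the threshold, and they differed by −0.297. The PBS groups were themselves apart, PBS-3 d6 below PBS-1 d6, and 5FU-3 d21 overlapped PBS-1 d6. Of the 34 genes, 1 lay above and 7 below PBS without overlap at day 21 after 1 administration, and 5 above and 4 below after 3. The shares of all genes that did so are not reported here. Tkt was noticed because every library of a group lay on one side of its control, and the difference was not tested.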

How the results depend on the processing

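The counts of genes past the threshold at day 6 had the same direction in all alternatives run. In fits that each left out 1 library, 11 to 15 genes were higher after 1 administration (11 without 5FU-1 d6 replicate 2 or 3). After 3 administrations 10 to 12 were higher (10 without PBS-3 d6 replicate 2). Over all genes, 801 to 1056 of 12975–13059 tested were higher in those fits after 1 administration, and 675 to 861 of 12978–13045 after 3. At day 21 against day 6 after 1 administration 14 to 21 were lower, beside 806 to 1641 of 12803–12858 genes. At day 21 against PBS, where edgeR called 0, DESeq2 called 1 gene after 1 administration and 3 after 3. DESeq2 called 400 higher and 325 lower of 12647 genes there after 1, and 226 and 366 of 12632 after 3. It called 3 in old mice, 1 between the PBS groups and 1 for the interaction, where edgeR also called 0. The fit of all 21 libraries called 1 (Guk1, lower) at day 21 after 3 administrations, beside 67 higher and 118 lower of 13571 genes. The cause was not tested. Replicate numbers did not pair the libraries, with mean correlations of same-numbered deviations from −0.0262 to 0.0256 over the comparisons of 2 groups. With the replicate number as a block 12 genes were higher after 1 administration, beside 1043 of 12759, and 12 after 3, beside 805 of 12729. Uncalled log2 fold changes near 0 changed sign. After 1 administration, fits without 1 library gave −0.13 to 0.030 for Impdh1, −0.0052 to 0.088 for Ctps2, −0.042 to 0.15 for Prps2 and −0.19 to 0.15 for Rpia. Ctps2 was −0.0063 and Rpia −0.034 with library size alone, and Rpia was −0.0031 with relative log expression, −0.0035 with DESeq2 and −0.0071 with the replicate block. After 3 administrations, library size alone gave −0.0072 for Adss, −0.00059 for Impdh1, −0.050 for Dhodh, −0.023 for G6pdx, −0.011 for Rpia, −0.068 for Tkt and −0.091 for Aprt, and Guk1 was 0.0054 in the fit of all 21 libraries. Fits without 1 library gave −0.023 to 0.18 for Impdh1, −0.0034 to 0.11 for Dhodh, −0.12 to 0.013 for Ctps2, −0.096 to 0.059 for Guk1, −0.018 to 0.16 for G6pdx, −0.087 to 0.23 for Rpia, −0.0030 to 0.064 for Tkt and −0.046 to 0.058 for Aprt. Over the 7 alternatives that keep every library, 437 of the day 6 log2 fold changes kept their direction and side of the threshold, 18 lost the threshold, 8 gained it and 13 changed sign. Lost after 1 administration were Prps1, G6pdx and Mthfd1 with library size alone, and these with Gart and Adk with the replicate block. Lost after 3 were Pgd with relative log expression, and Impdh2, Dtymk, Pgls, Pgd and Rpe with library size alone. With the replicate block Impdh2, Nme2, Dtymk and Pgls were lost after 3. Of the 33 day 6 calls, 20 held in each fit that left out 1 library. All 33 calls made 198 combinations of a call and such a fit, and the threshold was lost in 57. All 57 losses fell on the calls outside these 20. For all genes, library size alone moved the share of higher among the calls from 32.1% to 20.5% at day 21 after 1 administration, from 83.3% to 40.0% after 3, from 76.4% to 65.9% in old mice and from 52.3% to 35.1% for the interaction, and relative log expression moved that at day 21 after 3 administrations to 100%.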
